A study of Mus musculus with 6 samples.

Results

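The data were chromatin immunoprecipitation sequencing (ChIP-seq) peak lists for RBPJ, the DNA-binding protein of the Notch pathway, in F9 cells, an established line of mouse embryonal carcinoma cells. One list came from asynchronous, cycling cultures, which per the labels held 95% interphase and 5% mitotic cells, and the other from mitotic cells, which were arrested with nocodazole, a drug that blocks spindle assembly. Both used a custom-made anti-RBPJ antibody and a matching input library. Both were deposited with replicate 1 of 2 immunoprecipitations per population, and whether replicate 2 also entered the calls is not stated. No genotype or Notch stimulus distinguished the populations. The regions described here were the asynchronous (interphase) peaks that had no mitotic peak centre within 250 bp of their own centre and whose centre lay from -1 kb to +100 bp of an annotated transcript start. They numbered 1445 of the 5206 peaks of the interphase list, and the mitotic list held 3227 peaks. Because they were chosen by their absence from the mitotic list, that absence is a property of the choice and not a result. A region missing from a list of called peaks may still hold reads below the calling threshold. With 1 list per population there was no replicate error, so each interval and p-value given here covers counting error over peaks or genes only. Read depth is not given in these lists, and peaks that share a promoter are not independent.

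RBPJ binds a short DNA sequence and, in the absence of Notch signalling, recruits corepressors to its target genes. When a Notch receptor is cleaved, its intracellular domain joins RBPJ and Mastermind at these sites and transcription of targets such as the Hes and Hey repressors is switched on. Promoters are the stretches of DNA around transcript starts where RNA polymerase II assembles. Many of those serving housekeeping genes are rich in CpG dinucleotides, start transcription in both directions and carry sites for factors such as ETS proteins, YY1 and ZNF143. CTCF is a zinc finger protein that organises chromatin loops and insulates promoters.

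The RBPJ motif was searched as TTCCCACA or TTCCCACG on either strand. The CTCF motif was a core of 12 bases with up to 2 mismatches, and the ZNF143 motif a consensus of 19 bases with up to 3. The consensus of ZNF143 itself contains TTCCCA, the start of the RBPJ motif. The sequences that follow are those of members with the highest scores among the motif carriers, or of members at genes that the study discusses. Coordinates are mm9, and each sequence is written 5′ to 3′ on the strand of the gene, with the motif matches in capitals.

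The first set carries an RBPJ motif upstream of a start, outside any annotated exon. Rpl24 and Rpl23 encode proteins of the large ribosomal subunit, Ehd3 encodes a membrane-trafficking ATPase, and Fbxl19 a substrate receptor of an SCF ubiquitin ligase. Their peaks lie at chr16:55973609-55973781 (plus strand), chr11:97643782-97643954 (minus strand), chr17:74153926-74154098 (plus strand) and chr7:134889497-134889669 (plus strand). The study lists Fbxl19 among Notch responsive genes that RBPJ binds in asynchronous and mitotic cells. In the lists used here, the nearest mitotic centre to the Fbxl19 member was at -267524 bp.
Rpl24: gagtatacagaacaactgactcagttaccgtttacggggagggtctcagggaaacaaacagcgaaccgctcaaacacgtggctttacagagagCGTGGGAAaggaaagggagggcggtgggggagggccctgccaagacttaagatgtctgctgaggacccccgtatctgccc
Rpl23: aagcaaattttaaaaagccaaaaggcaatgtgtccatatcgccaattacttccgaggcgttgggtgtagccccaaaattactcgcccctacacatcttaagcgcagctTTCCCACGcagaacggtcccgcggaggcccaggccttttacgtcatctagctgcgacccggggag
Ehd3: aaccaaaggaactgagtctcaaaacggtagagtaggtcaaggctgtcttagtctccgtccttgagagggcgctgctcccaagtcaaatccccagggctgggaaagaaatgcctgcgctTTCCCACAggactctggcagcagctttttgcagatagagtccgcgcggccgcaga
Fbxl19: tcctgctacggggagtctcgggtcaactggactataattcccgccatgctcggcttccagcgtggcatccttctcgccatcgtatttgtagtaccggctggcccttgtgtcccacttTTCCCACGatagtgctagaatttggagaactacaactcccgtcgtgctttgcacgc

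The second set shows members that hold more than 1 kind of motif, or a ZNF143 motif alone. Naprt1 (nicotinate phosphoribosyltransferase, an enzyme of NAD synthesis) has an RBPJ motif followed by a CTCF motif at chr15:75724987-75725159 (minus strand). Kdr, the gene of a VEGF receptor, has the same pair at chr5:76374527-76374699 (minus strand). Snx14, a sorting nexin gene, has a ZNF143 motif followed by an RBPJ motif at chr9:88333878-88334050 (minus strand). Banp, which encodes a nuclear DNA-binding protein, has a ZNF143 motif only, at chr8:124473886-124474058 (plus strand).
Naprt1: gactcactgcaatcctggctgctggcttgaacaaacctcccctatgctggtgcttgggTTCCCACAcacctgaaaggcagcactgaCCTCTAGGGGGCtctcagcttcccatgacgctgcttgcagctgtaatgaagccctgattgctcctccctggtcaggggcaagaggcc
Kdr: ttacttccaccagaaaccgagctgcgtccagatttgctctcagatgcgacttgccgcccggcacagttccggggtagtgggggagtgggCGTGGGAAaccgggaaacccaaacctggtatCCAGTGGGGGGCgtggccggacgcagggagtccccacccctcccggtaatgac
Snx14: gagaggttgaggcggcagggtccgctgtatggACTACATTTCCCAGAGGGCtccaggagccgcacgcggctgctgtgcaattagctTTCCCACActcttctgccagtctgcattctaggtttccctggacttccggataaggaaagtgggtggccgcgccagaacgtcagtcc
Banp: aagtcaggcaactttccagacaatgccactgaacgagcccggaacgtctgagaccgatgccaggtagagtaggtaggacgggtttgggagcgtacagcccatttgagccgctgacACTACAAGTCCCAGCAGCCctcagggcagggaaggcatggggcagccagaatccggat

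The last set overlaps annotated exons, so only the 30 bases around the motif are shown. They are the Notch target Hes1 at chr16:30066452-30066481 (plus strand), 1110002N22Rik at chr11:79955622-79955651 (minus strand), Ttyh1 at chr7:4076066-4076095 (plus strand) and the CTCF match of the top-ranked member, 2610005L07Rik, at chr8:20020439-20020468 (minus strand).
Hes1: ctcactccgcgTTCCCACGgtctgggtctt
1110002N22Rik: aggaacacaggCGTGGGAAagagcctggcg
Ttyh1: tgctgttctttTTCCCACGgaggatgaacc
2610005L07Rik: atataggggCCACCAGAGGGCgcgaggcgg

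The members had scores like those of the interphase-only peaks elsewhere. Their peak score is a value that the HOMER peak caller assigns and that was compared here only within a list. It ran from 10.1 to 52.3 with a median of 11.8 and quartiles of 11 and 13.9. The 3336 interphase-only peaks elsewhere had the same median, quartiles of 10.6 and 13.5 and a highest score of 42.2. Of the 1445, 771 (53.4%) scored within 20% of the lowest score of the list, 261 scored 15 or more, 65 scored 20 or more and 12 scored 30 or more. Among the 100 highest scores of the whole interphase list, 24 were members (24%, 16.0 to 33.6), an interval that holds their part of the list, 1445 of 5206. The interphase peaks at promoters that did have a mitotic centre within 250 bp, called shared here (n = 184), had a median score of 13.9 and a range of 10.1 to 39.3. As the rule used the presence of a mitotic peak, this is a description and was not tested. Members made up 360 of 453 interphase promoter peaks in the top score quartile of the list and 340 of 364 in the bottom one. Over the whole list they were 1445 of 1629 promoter peaks (88.7%). Of the interphase peaks elsewhere, 3336 of 3577 (93.3%) were also interphase-only, so this was the common case and not a mark of the members. The study defined specific peaks by a difference in enrichment between the populations, and counted most asynchronous sites as also occupied in mitosis.

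The highest-scoring member, at 52.3, lay 11 bp upstream of the processed transcript 2610005L07Rik, and the second, at 45.6, lay 7 bp upstream of 1110002N22Rik, which RefSeq now names Tefm and which encodes the mitochondrial transcription elongation factor. Kdm5a, a histone H3 lysine 4 demethylase gene, followed with 39.3 and a centre 343 bp upstream. Rpl24 scored 38.8, Rad9, a DNA damage checkpoint gene, 38.4, and Cenpt, which encodes a constitutive centromere protein, 37.1. Banp scored 34.6, Ehd3 33.8 and Ttyh1, a chloride channel gene of the tweety family, 31.7. The other members of the top 20 were Gm10060 (31.7), Rpl23 (30), Pisd-ps2 (30), the spliceosomal RNA genes U11 (28.7) and U1 (26.2), the amino acid transporter gene Slc38a7 (26.2), the orphan nuclear receptor gene Esrrb (26.2), Nanog (25.8), Moap1 (25.8), 1810024B03Rik (25.3) and Txnl4b (24.9). Gm10060, Pisd-ps2, 2610005L07Rik and the U1 gene belong to families of near-identical copies, and only uniquely aligned reads entered the lists, so their values are uncertain.

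**Figure D1:**
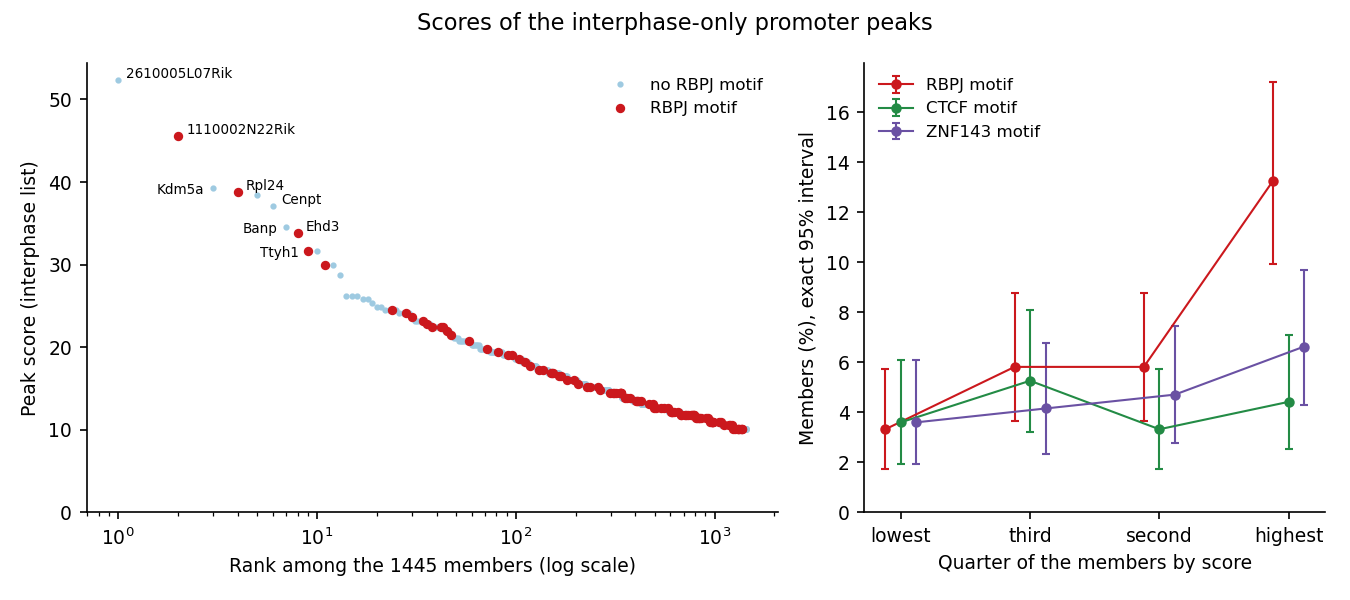
Left, peak score in the interphase list (y axis) against the rank among the 1445 members (x axis, log scale), with RBPJ motif carriers in red. Right, percent of members with each motif in the 4 quartiles by score, with exact 95% intervals. The RBPJ motif was in 13.3% of the top quartile and 3.32% of the bottom one.

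The rule kept only centres from -1 kb to +100 bp of a start, so closeness to a start was partly fixed by the choice. The values here describe the place within that window. Measured to the nearest start whose promoter window held it, the centre had a median place of -100 bp, with quartiles at -295 and -16 bp. The 50 bp just upstream of the start, the start included, held 281 members (19.4%), and 263 (18.2%) lay downstream of it, within the first 100 bp of the transcript. Only 185 (12.8%) lay more than 500 bp upstream. The centre was in an annotated exon for 453 members (31.3%), and 814 peaks (56.3%) overlapped one. Measured to the nearest start of any gene, 723 members (50.03%) had the centre within 100 bp of it, against 82 of 184 shared promoter peaks (44.6%) and 129 of 473 mitotic-only promoter peaks (27.3%). The last are mitotic peaks at promoters with no interphase centre within 250 bp. The odds of a start within 100 bp were 2.67 times those of mitotic-only peaks (2.13 to 3.35 at 95%, adjusted p = 8.50e-18 by Fisher's exact test, two-sided, with Benjamini-Hochberg adjustment over all 13 comparisons made). Against shared peaks the odds ratio was 1.25 (0.915 to 1.70, exact test, adjusted p = 0.238), an interval that holds both no difference and a moderate excess. Restricted to scores at or above the median of each list, this odds ratio was 1.54 with an adjusted p of 0.0320 by the same exact test.

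**Figure D2:**
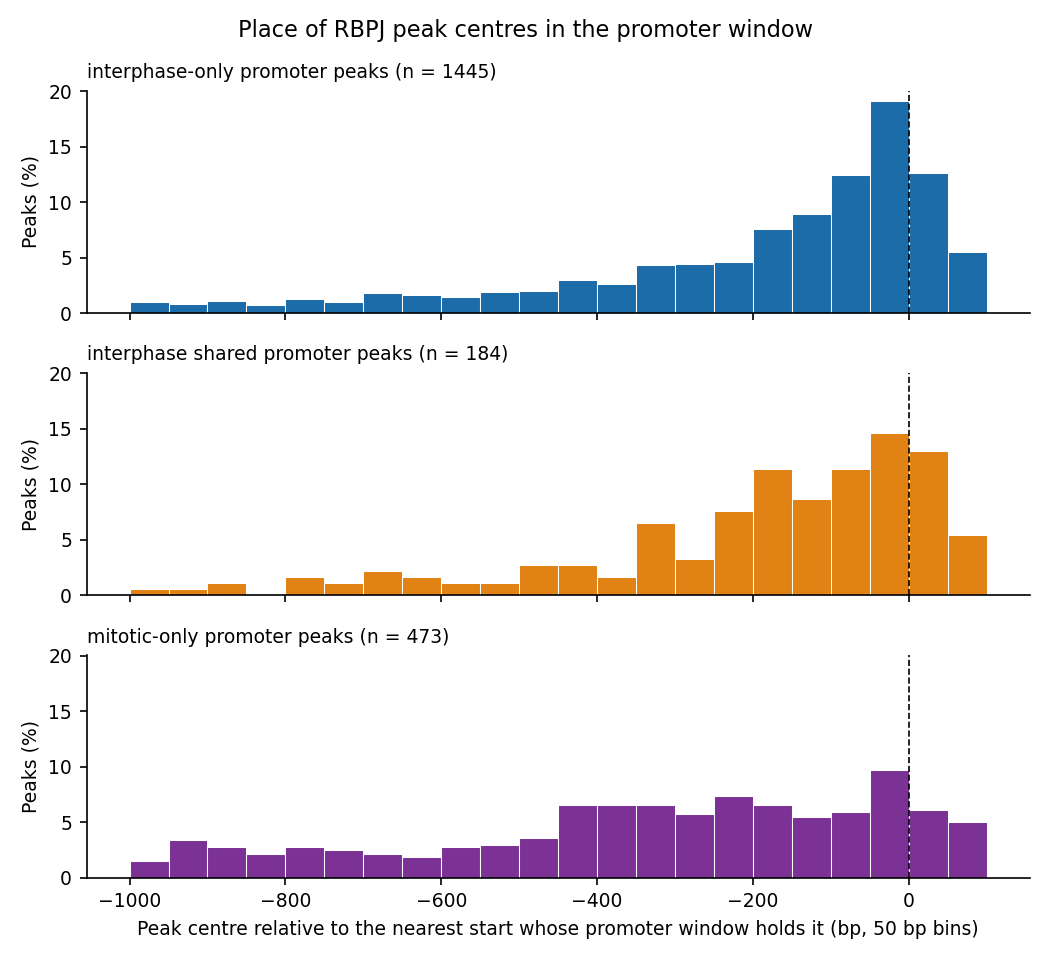
Place of the peak centre relative to the nearest start whose promoter window held it, in 50 bp bins (x axis), as percent of the peaks of each class (y axis), for 1445 interphase-only, 184 shared and 473 mitotic-only promoter peaks. The interphase-only peaks pile up at the dashed line that marks the start, with a median of -100 bp, and the mitotic-only peaks are spread further upstream, with a median of -282 bp.

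At the edges of the rule, the members farthest upstream were at Lrrc8d (-997 bp, score 10.1) and Lamb2 (-996 bp, 13.1), and those farthest downstream at Cbx6 (97 bp, 14.4) and Dctn6 (97 bp, 11). Next to the limit of 250 bp from a mitotic centre, the nearest members were those at Ndufa9 (score 13.1), Map4k1 (13.9) and Sfrs18 (12.2), and the nearest peaks on the other side were at Zcwpw1 (239 bp, 11), Zfp790 (-228 bp, 11.8) and Mxd3 (222 bp, 12.2). For 27 members a mitotic centre lay within 250 to 500 bp and for another 31 within 500 to 1000 bp. For 553 members the nearest lay 100 kb to 1 Mb away, and 147 had none within 1 Mb.

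The RBPJ motif was found in 102 of the 1445 members (7.06%, exact 95% interval 5.79 to 8.50). In windows of the same width placed at the members' median position upstream of all 22380 protein-coding genes, the share was 1.47%. Among shared promoter peaks 27 of 184 (14.7%) held it, so the odds in members were 0.442 times theirs (0.280 to 0.696, exact test, adjusted p = 0.00255). Among mitotic-only promoter peaks it was in 10 of 473 (2.11%), and the odds in members were 3.52 times higher (1.82 to 6.79, exact test, adjusted p = 7.17e-05). Interphase-only peaks away from promoters held it in 318 of 3336 cases (9.53%, odds ratio of members 0.721, 0.572 to 0.909, exact test, adjusted p = 0.00776). The share followed the score: 48 of the 362 members in the top quartile of member scores had the motif (13.3%), and 12 of 361 in the bottom one (3.32%). All 3 comparisons kept their direction and their side of the threshold among peaks that scored at or above the median of their own list. Shared promoter peaks had a median score of 13.9 and members one of 11.8. No comparison was matched for score, and the part of score in the contrast with shared peaks was not tested.

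Of 103 RBPJ motif matches in the members, 52 (50.5%) had their midpoint within 25 bp of the peak centre, where an even spread over the window would put 30.1%. The motif pointed the same way as the gene in 50 (48.5%, 38.6 to 58.6). The 5 strongest carriers were 1110002N22Rik, with the motif 8.5 bp downstream of the start, Rpl24 (at -211.5 bp), Ehd3 (at -133.5 bp), Ttyh1 (at -25.5 bp) and Rpl23 (at -91.5 bp). Their motifs lay between 10.5 and 35.5 bp from the peak centre on either side. Among cytosolic ribosomal protein genes 5 of 16 member peaks carried it, beside 7.06% of all members.

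The CTCF motif was in 60 members (4.15%, 3.18 to 5.31), beside 2.61% of all protein-coding promoter windows. Shared promoter peaks had it in 18 of 184 (9.78%, odds ratio of members 0.400, 0.230 to 0.693, exact test, adjusted p = 0.00479), but this difference did not pass the threshold with at most 1 mismatch (0.634, exact test, adjusted p = 0.636) or with a consensus of ambiguity letters (0.608, adjusted p = 0.358). Mitotic-only promoter peaks had it in 17 of 473 (3.59%, odds ratio 1.16, 0.671 to 2.01, exact test, adjusted p = 0.686). The contrast with interphase-only peaks elsewhere was larger, since 449 of 3336 of those carried it (13.5%, odds ratio of members 0.278, 0.211 to 0.367, exact test, adjusted p = 1.06e-23). CTCF matches were within 25 bp of the centre in 22 of 60 (36.7%, against 30.9% for an even spread). Only 6 members held both an RBPJ and a CTCF motif. The 5 with the highest scores were Naprt1 (score 22.4), Stat3, a cytokine signalling transcription factor gene (19), 9230102O04Rik (14.8), Rbpjl, the gene of a pancreatic paralogue of RBPJ (11.4), and Kdr (11.4).

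The ZNF143 motif was more frequent in the interphase-only peaks at promoters than in those elsewhere. It was in 69 members (4.78%, 3.73 to 6.005) and in 13 of 3336 interphase-only peaks elsewhere (0.390%, odds ratio 12.8, 7.06 to 23.3, exact test, adjusted p = 1.53e-23). All protein-coding promoter windows held it in 1.52%. Mitotic-only promoter peaks had it in 7 of 473 (1.48%), and the odds in members were 3.34 times higher (1.52 to 7.32, exact test, adjusted p = 0.00246). Shared promoter peaks had it in 6 of 184 (3.26%, odds ratio 1.49, 0.637 to 3.48, exact test, adjusted p = 0.494), so a difference in either direction fits that interval. Among 70 of its matches whose bases were read, 39 contained TTCCCA, and 2 of all 73 were overlapped by a full RBPJ motif. Of the 73 matches, 18 were within 25 bp of the centre (24.7%, against 32.9% for an even spread, not tested), and 49 lay within 100 bp of a start. It pointed the same way as the gene in 46 of 73 (63.0%, 50.9 to 74.0). After Banp, the strongest carriers were Ints9, an Integrator subunit gene (24.1), Snx14 (23.2), Tmem208 (19.8) and the nuclear transport factor gene Nutf2 (19.8). There were 6 members with both this motif and the RBPJ motif, of which Ints9 and Snx14 scored highest.

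**Figure D3:**
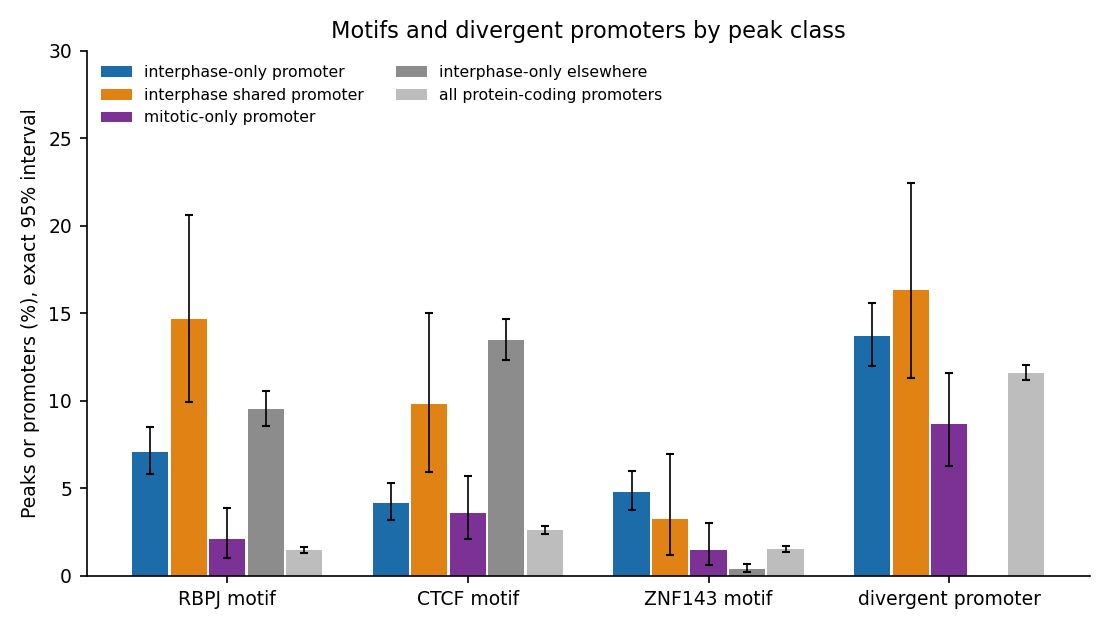
Percent of peaks, or of all protein-coding promoter windows, with each motif or at a divergent promoter (y axis), by class (colours), with exact 95% intervals. For interphase-only promoter peaks the RBPJ motif share of 7.06% lies between that of shared (14.7%) and mitotic-only (2.11%) promoter peaks, and the ZNF143 share of 4.78% lies above the 0.390% of peaks elsewhere. Divergent promoters were not counted for peaks elsewhere.

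Other words of 8 bases, and some shorter ones, were compared with all protein-coding promoter windows, as a description without a test. They were chosen after their counts were seen. Shorter words occur more often, so shares compare only within the same word. Only 8-base words found in at least 30 members were ranked, so words rare in the members could not appear. The word with the highest ratio among these was the RBPJ motif itself, TTCCCACG, in 3.81% of members and 0.509% of promoters. The second, ATCACGTG, holds an E-box, the site of factors such as USF and MYC, and was in 2.77% of members and 0.608% of promoters. Its palindrome TCACGTGA was in 2.56% of members, 5.98% of shared, 0.423% of mitotic-only promoter peaks and 0.684% of promoters. CCGGAAG, the core of ETS sites, was in 12.3% of members, 7.61% of shared and 7.82% of mitotic-only promoter peaks, beside 6.22% of all promoters and 2.61% of interphase-only peaks elsewhere. AAGATGGC, part of the YY1 site, was in 3.67% of members and 1.14% of promoters, with the same orientation as the gene in 38 of 53 matches (71.7%) and a median place 1.5 bp upstream of the start. By contrast TATAAA was in 2.77% of members and 8.94% of promoters, and GGGCGG, the core of SP sites, in 22.5% and 34.9%. CCAAT was about level, with 27.1% and 28.2%.

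The members spanned a narrow range of base composition. Their GC content had a median of 56.6% and quartiles of 54.9 and 59.0%, a narrower band than the quartiles of 46.2 and 64.2% over all protein-coding promoter windows. Quartiles were 54.3 and 59.0% in shared and 52.0 and 56.6% in mitotic-only promoter peaks. The observed over expected CpG ratio had a median of 0.640 in members, 0.719 in shared, 0.485 in mitotic-only promoter peaks, 0.281 in interphase-only peaks elsewhere and 0.513 over all promoter windows. With a ratio over 0.6 and GC over 50%, a mark of CpG islands, 788 members qualified (54.5%) beside 39.1% of all promoter windows. The part of base composition in the motif shares was not tested.

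Divergent promoters, in which starts of 2 genes on opposite strands point away from each other within 1 kb, held 198 members (13.7%, 12.0 to 15.6). All protein-coding promoter windows reached 11.6%, shared promoter peaks 16.3% (odds ratio of members 0.815, 0.536 to 1.24, exact test, adjusted p = 0.433) and mitotic-only promoter peaks 8.67% (odds ratio 1.67, 1.17 to 2.38, exact test, adjusted p = 0.00617). The last difference did not pass the threshold among peaks within 100 bp of a start, where the odds ratio was 1.17 (exact test, adjusted p = 0.681), and with promoters cut at -500 bp it was 1.40 (adjusted p = 0.102). In 148 of the 198 both genes were protein-coding, in 31 the partner was a lincRNA and in 14 a processed transcript. The starts were 185 bp apart at the median, with quartiles of 89.5 and 348.5 bp. The centre lay between the starts in 109 (55.1%), and 55 of these were within 50 bp of the midpoint. Where the starts lie close together, any centre between them is this near the midpoint, so part of that count was fixed in advance. A ZNF143 motif was in 17 of the 198 (8.59%, 5.08 to 13.4) and in 52 of the 1247 other members (4.17%), and an RBPJ motif in 9 (4.55%) and 93 (7.46%).

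The strongest divergent member, at 25.3, lay beside the starts of 1810024B03Rik and Snrnp200, the helicase gene that drives spliceosome activation, 106 bp apart. The next, at 24.9, was at Dhx38 and Txnl4b, both splicing genes, 291 bp apart. The third lay 28 bp from the midpoint of Hmbox1 and Ints9, whose starts are 198 bp apart, with a score of 24.1. Ube2b, a ubiquitin-conjugating enzyme gene, shared its member (22.8) with the processed transcript Gm12204, and Sharpin shared one (22) with Maf1, the gene of a repressor of RNA polymerase III. Other pairs joined genes of different pathways, such as Sphk2 with the ribosomal protein gene Rpl18 (14.8), Cdc26 with Prpf4 (16) and Neurl2 with Ctsa (19.4). At such pairs the peak cannot be assigned to 1 gene.

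**Figure D4:**
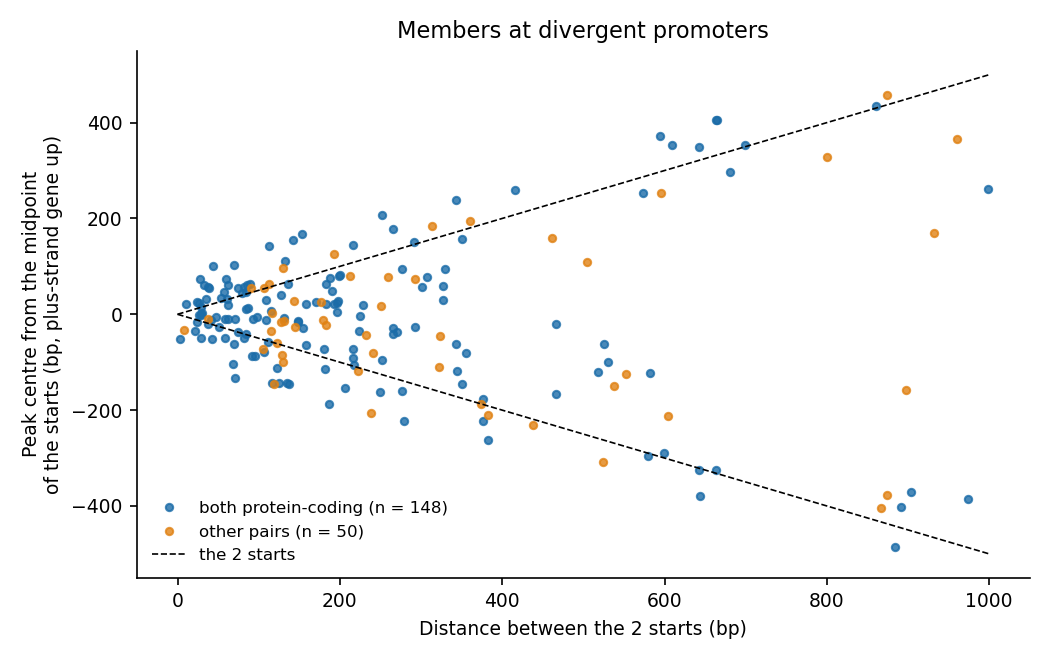
Members at divergent promoters, by the distance between the 2 starts (x axis, bp) and the place of the peak centre relative to their midpoint (y axis, bp, positive towards the plus-strand gene), for 148 pairs of protein-coding genes and 50 other pairs. Dashed lines mark the starts, and 109 of the 198 centres lie between them.

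The nearest start belonged to a protein-coding gene for 1312 members (90.8%), to a lincRNA for 52, a processed transcript for 37, a miRNA for 14 and a pseudogene for 11. Counted by gene, 1482 of 22380 protein-coding genes (6.62%) and 1662 of 37310 genes of every type (4.45%) had a member in a promoter window. The share was 4.95% for lincRNA genes (63 of 1273), 1.83% for processed transcripts, 1.52% for miRNA genes, 1.22% for snoRNA genes, 0.562% for snRNA genes and 0.231% for pseudogenes (12 of 5201). Of the 1662 genes, 37 had 2 members, 12 also had a shared promoter peak and 58 also had a mitotic-only one. The 58 include Smc1a, Mrpl1, Wrap53, Eif3k, Fbxo6, Stat3, Ndufa9, Map4k1, Sfrs18, Gm10060 and Notch4. Such promoters had an RBPJ peak in both lists. A member lay in the windows of 1 gene in 1206 cases, of 2 genes in 227 and of 3 or more in 12.

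Among the non-coding genes with a member were host genes of small nucleolar RNAs, which guide chemical modification of ribosomal RNA. They were Gas5 (score 18.6, 2 bp downstream of its start), Snhg12 (16.5), Snhg3 (13.5), Snhg1 (11.8) and Snhg5 (11.8), and the share of such host genes was not counted. Of the spliceosomal RNA genes, U11 and U1 were described above, and U4 scored 14.8 with its centre 3 bp inside the gene. The telomerase RNA gene had a member of 11 at 11 bp downstream of its start. A locus annotated as 7SK had one at -305 bp with the lowest score of the list, 10.1. The 7SK RNA restrains the elongation factor P-TEFb, but whether this locus is its functional gene or a related copy was not checked. The miR-290 cluster, a set of miRNAs of pluripotent cells, had 3 members: one at -802 bp from Mir290 (15.2), one beside Mir291a and Mir292 (16) and one at -665 bp from Mir293 (13.5). A miRNA start here is the annotated hairpin, not the start of its primary transcript. Non-coding genes were named after their values were seen, except those among the highest scores or at the named divergent pairs and Gas5.

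Gene lists were read against the 6.62% of all protein-coding genes with a member. Of 24 lists, 16 had an exact 95% interval wholly above it, 7 an interval that held it, and 1 an interval below it. Promoters of expressed or CpG-rich genes were not taken as a separate background, and no set test was run, so a share above 6.62% is not particular to a list. Motif or divergent promoter counts are printed for some lists only, and these were not tested.

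Of the 24 lists, ribosome biogenesis had the highest share, with 23 of 75 genes with a member (30.7%, 20.5 to 42.4), led by Rrp15 (score 20.7), the exosome subunit gene Exosc4 (20.3), Nop16 (15.6) and Nip7 (15.2). Aminoacyl-tRNA synthetases, which charge tRNAs with amino acids, had 10 of 38 (26.3%, 13.4 to 43.1), with Tars2 (23.2) and Kars (16). Cytosolic ribosomal proteins had 16 of 85 (18.8%, 11.2 to 28.8), where Rpl24 and Rpl23 were followed by Rpl22 (15.2) and Rpl18 (14.8). Translation factors had 11 of 73 (15.1%, 7.77 to 25.4), with Eif5 (17.3), Eif3k (13.9), Eif4a2 (13.1) and Eif2b5 (12.7). Over all protein-coding genes, 0.929% had a shared promoter peak and 2.06% a mitotic-only one. Of the ribosome biogenesis list 1 of 75 genes had a shared and 3 a mitotic-only peak, whereas of the cytosolic ribosomal proteins 7 of 85 (8.24%, 3.38 to 16.2) had a shared and 5 (5.88%, 1.94 to 13.2) a mitotic-only one. Of the synthetases 2 of 38 had a shared and none a mitotic-only peak, and of the translation factors 1 of 73 and 3 of 73.

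Mitochondrial genes gave similar shares. Respiratory chain and ATP synthase genes had 19 of 99 (19.2%, 12.0 to 28.3), with Atp5f1 (20.3), Ndufaf1 (19.4), Cox18 (16.5) and Atp5d (13.9). The import machinery had 7 of 27 (25.9%, 11.1 to 46.3), with Timm44, an inner membrane translocase subunit that the study discusses (19), Samm50 (14.4), Timm10 (12.2) and Timm22 (12.2). Mitochondrial ribosomal proteins had 11 of 77 (14.3%, 7.35 to 24.1), with Mrpl1 (19.8). Of their 11 member peaks, 6 were at divergent promoters, beside 13.7% of all members. Shared promoter peaks were at 3 of the 27 import genes (11.1%, 2.35 to 29.2), 2 of the 99 respiratory chain genes and 1 of the 77 mitochondrial ribosomal protein genes, and mitotic-only ones at 1, 1 and 5. Mrpl1 was among these 5.

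Of the genes for transcription and RNA processing, general transcription factors and Mediator had 14 of 78 (17.9%, 10.2 to 28.3), with Med19 (18.2) and Med23 (15.6). The spliceosome had 15 of 85 (17.6%, 10.2 to 27.4). At divergent promoters were 8 of its 15 member peaks, beside 13.7% of all members and 0 of the 14 of general transcription factors and Mediator. RNA polymerase subunits had 5 of 27 (18.5%, 6.30 to 38.1), with Polr2g (14.4) and Polr1b (13.9). Telomerase and Cajal body proteins had 4 of 18 (22.2%, 6.41 to 47.6), with Naf1 (15.6), Wrap53 (13.1) and Nop10 (11.8) among them. Zinc finger genes had 57 of 425 (13.4%, 10.3 to 17.02), led by Zfp747 (19.4) and Zbtb37 (18.6). Of their 57 member peaks, 7 held the ZNF143 motif, beside 4.78% of all members.

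**Figure D5:**
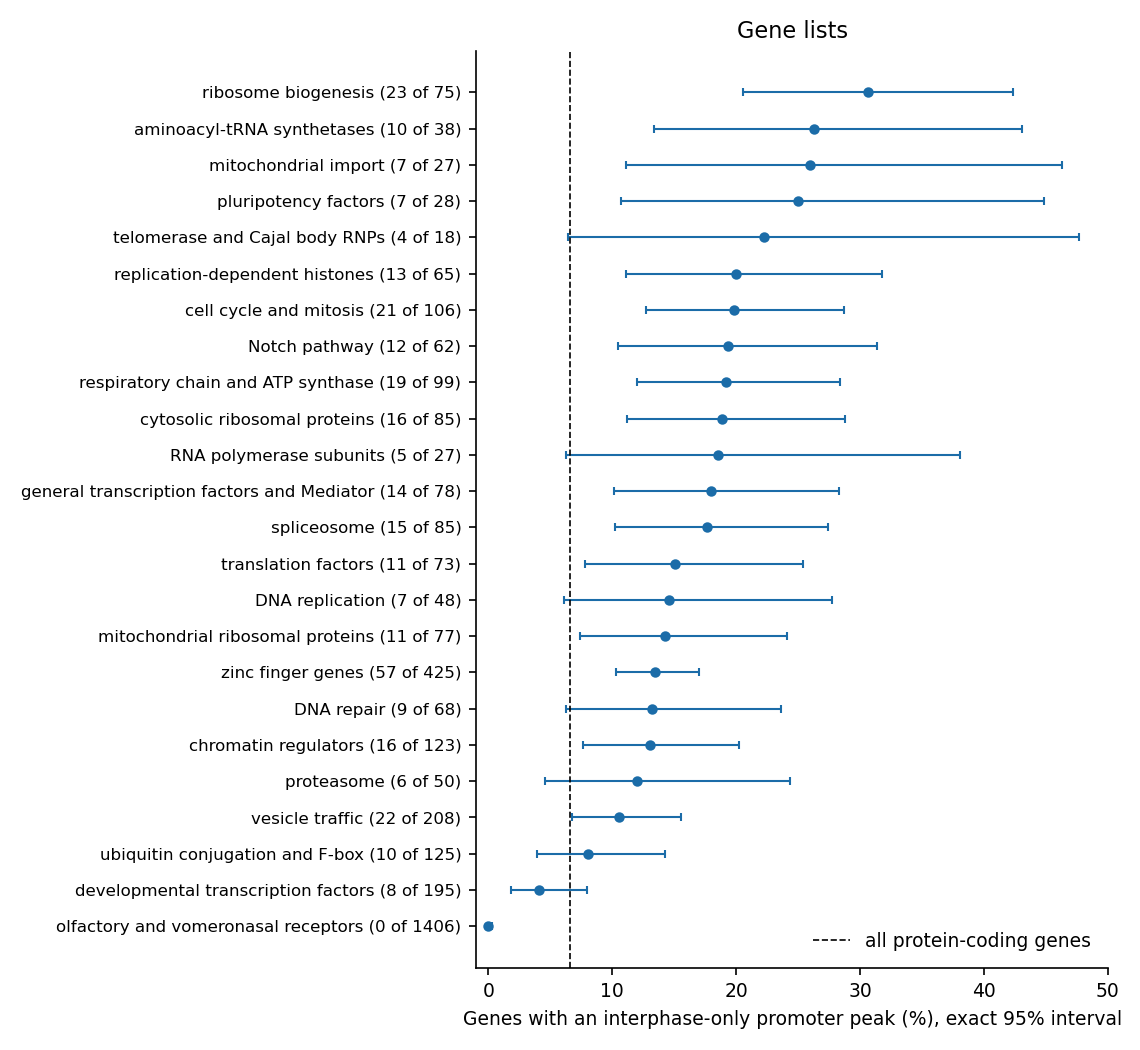
Percent of the genes of each list with an interphase-only promoter peak (x axis), with exact 95% intervals and the number of genes in brackets. The dashed line marks the 6.62% of all protein-coding genes, and the lists range from 0 of 1406 for olfactory and vomeronasal receptors to 23 of 75 for ribosome biogenesis.

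The cell cycle and mitosis list had 21 of 106 genes with a member (19.8%, 12.7 to 28.7), led by the kinetochore gene Cenpt and followed by Cenpo (20.3), the cohesin gene Smc1a (17.3) and Cdc16, an anaphase-promoting complex subunit gene (16.5). A shared promoter peak was at 5 of the 106 (4.72%) and a mitotic-only one at 8 (7.55%), Smc1a among these 8. DNA replication had 7 of 48 (14.6%, 6.07 to 27.8), with Fen1 (14.8), and DNA repair 9 of 68 (13.2%, 6.24 to 23.6), with Rad9, Ercc1 (13.1) and Fanci (13.1). Replication-dependent histone genes had 13 of 65 (20%, 11.1 to 31.8), with Hist1h4h (16.9), Hist1h2bn and Hist1h2ak, which share 1 peak (16), and Hist1h3g (15.6). No histone gene had a shared or mitotic-only promoter peak, beside 0.929% and 2.06% of all protein-coding genes. The 0 of 65 allows a share of up to 5.52%, which holds both of these, so it shows no difference from them. Histone genes of the same family have similar coding sequences, and reads that match more than 1 place were not kept. Whether this affected the peaks at these promoters was not checked. Chromatin regulators had 16 genes with a member (13.01%, 7.62 to 20.3), with Kdm5a, the DNA demethylase gene Tet1 (17.7), Prmt5 (15.2) and Cbx6 (14.4).

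The Notch pathway list had 12 of 62 genes with a member (19.4%, 10.4 to 31.4). Among ligands, Dll1 scored 10.6 and the non-canonical ligand gene Dner 11. Among receptors, Notch4 had one (14.4, 18 bp downstream of the start, with an RBPJ motif) and also a mitotic-only promoter peak, while Notch1 had a shared one and no member. Elsewhere in the list, the target gene Hes5 and the Mastermind gene Maml1 had mitotic-only promoter peaks and no member. Of the ligand regulators, Neurl2, Mib2 and Neurl4 scored 19.4, 11.4 and 10.6, and Numb, an inhibitor of receptor signalling, scored 12.7. Aph1a, a subunit gene of the protease that cleaves Notch, scored 10.6. Of the nuclear partners of RBPJ, the coactivator gene Snw1 scored 17.3 and the corepressor gene Spen 10.6. Dtx3l, a relative of the Deltex regulators, scored 10.1. The member at Hes1 scored 15.2, lay 49 bp downstream of the start and had its RBPJ motif 6.5 bp from the centre. Hes1 also had a shared promoter peak, and the nearest mitotic centre to this member was at -1073 bp on the chromosome, so this promoter had an RBPJ peak in both lists beside the member. The study found RBPJ at the Hes1 promoter in both asynchronous and mitotic cells, by sequencing and by PCR of the immunoprecipitated DNA. Of the 12 member peaks of the list, 2 held an RBPJ motif, those at Hes1 and Notch4, beside 7.06% of all members.

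Pluripotency factor genes, which F9 cells share with embryonic stem cells, had 7 of 28 (25%, 10.7 to 44.9). Esrrb (26.2, centre 66 bp downstream of the start) and Nanog (25.8, 24 bp upstream) were far above the members' median of 11.8, and Klf5 (15.2) and Lefty1 (12.7) followed. None of the 28 had a shared promoter peak (0.929% over all genes), and 2, Klf4 and Mycn, had a mitotic-only one (7.14%, 0.877 to 23.5). None of the 7 members held any of the 3 motifs, which 15.2% of all members held, and so few peaks cannot show a difference from that share. Developmental transcription factors had 8 of 195 (4.10%, 1.79 to 7.92), with Tbx6 (12.2), Tbx3 (11.8), Foxo4 (11.4) and Hoxb7 (11.4) at scores near the median. Olfactory and vomeronasal receptors, which serve sensory neurons, had 0 of 1406, which allows a share of up to 0.262%.

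The other lists had shares between those of the housekeeping groups and all genes. Vesicle traffic had 22 of 208 (10.6%, 6.75 to 15.6), with Rab5b (24.9), Snx14, Snx12 (18.6) and Cope (16.5). The proteasome had 6 of 50 (12.0%, 4.53 to 24.3), with Psmg3 (15.2), Psmb3 (14.4), Psmf1 (13.5) and Psma1 (10.6). Ubiquitin conjugation and F-box genes had 10 of 125 (8%, 3.90 to 14.2), with Ube2b, Fbxl19 (19), Fbxo31 (15.6) and Fbxo6 (13.1).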

How the data were processed

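RBPJ ChIP-seq was done on asynchronous and mitotic F9 cells, 2 immunoprecipitations and 1 input per population (6 libraries). The authors aligned reads uniquely to mm9 with Bowtie 0.12.7 and called peaks with HOMER against input. They deposited 1 list per population, attached to replicate 1, with a HOMER peak score per peak. The deposited score scale is not stated, so scores were used only within a list. Transcript starts came from GENCODE vM1 (the same build), and sequence from that genome. Intervals are exact 95% binomial ones, and odds ratios have Woolf intervals. There were 13 two-sided Fisher's exact tests with Benjamini-Hochberg adjustment over all 13. Motifs were searched in a window of the interphase peak width around each centre. Scripts were tested on simulated peaks and sequences (Python 3.11.15, pandas 2.3.3, scipy 1.17.1, pysam 0.24.0).

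Named members, outside chromosome 18, were the 20 highest scores, those at genes that the study names, up to 4 per gene list, the 5 highest with each motif or motif pair or at divergent promoters, and the 3 nearest each side of the 250 bp limit. Genes outside this rule were named after their values were seen: the other Notch pathway genes, Klf4 and Mycn, the non-coding genes and those at the window edges. The members and lists were chosen with earlier results of these data known. Gene list symbols are those of GENCODE vM1. The second replicates and inputs were not analysed here.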

Additional observations from a re-analysis of the deposited data

How the results depend on the processing

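Under 16 alternatives, 1 of which (peaks within 100 bp of a start only) was chosen after seeing the data, there were 126 odds ratios, of which 116 kept their direction and their side of the threshold. With promoters cut at -500 bp, the divergent promoter odds ratio against mitotic-only peaks was 1.40 (no longer past the threshold) and that of the CTCF motif 0.967 (turned). With scores at or above the median of each list, there were 797 members and 828 protein-coding genes with one, the odds ratio of a start within 100 bp against shared peaks was 1.54 (now past the threshold), and that of divergent promoters turned to 1.09. With at most 1 mismatch, the CTCF odds ratios were 0.634 against shared (no longer past) and 0.652 against mitotic-only peaks (turned), and with ambiguity letters 0.608 against shared (no longer past). Within 100 bp of a start, the CTCF odds ratios were 0.454 against shared (no longer past) and 0.624 against mitotic-only peaks (turned), and that of divergent promoters against mitotic-only peaks was 1.17 (no longer past). Fewer peaks enter the fits restricted by position or score, the CTCF alternatives change the motif on the same peaks, and the cause was not tested. Of 168 gene list counts under an alternative, 161 stayed within the interval of the main share, and the other 7 were lower with scores at or above the median. No paired analysis was possible because each population has 1 peak list, and for the same reason no replicate could be left out. The lists carry no read counts, so weak mitotic signal at a member cannot be seen.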
